A study of Mus musculus with 15 samples.

Results

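Mitochondrial ribosomal proteins are encoded in the nucleus, made in the cytosol and imported into mitochondria, where they assemble with the ribosomal RNAs of the mitochondrial chromosome into a large and a small subunit. The finished ribosome translates the messenger RNAs of the mitochondrial chromosome, all of which encode subunits of the respiratory chain or of ATP synthase. Gut epithelial cells rely heavily on mitochondria, and those of the cecum and colon are known for burning butyrate made by bacteria. The members were the genes of the cecal table whose symbol starts with Mrpl or Mrps followed by a digit, pseudogene symbols left out. They had an FPKM (the reads of a gene relative to its length, scaled between libraries) of at least 0.5 in at least 7 mice. Of 82 rows with such a symbol, 5 had a pseudogene symbol, 2 were below the filter and 75 were members, 46 of them Mrpl genes (large subunit by symbol) and 29 Mrps genes (small subunit by symbol). They were 75 of 11983 genes tested.

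Cecal RNA came from wild-type C57BL/6 mice, aged 20 weeks by the labels, after 30 days with 2 gavages per day. The 7 antibiotic-induced microbiome-depleted (AIMD) mice received ampicillin, vancomycin, neomycin, metronidazole and the antifungal amphotericin B, and the 8 vehicle-treated mice received water. The mice were male, the ceca were emptied before freezing, and the wall was not separated into its layers, so the values are averages over epithelium, muscle and all other cells. Fewer cells of a type and less RNA per cell cannot be told apart in such tissue. Between 8679672 and 18108573 reads per AIMD mouse, and between 4372409 and 14405935 per vehicle-treated mouse, were counted on genes. The comparison of 7 AIMD with 8 vehicle-treated mice asks how the RNA for the mitochondrial ribosome differs in the cecum after microbiome depletion.

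Symbol and place in the ribosome are not the same for every member. Mrps18a and Mrps30 sit in the large subunit in spite of their names, and Mrps36 belongs to the 2-oxoglutarate dehydrogenase complex and not to the ribosome. By place, 48 members were in the large and 26 in the small subunit. Bacteria have a homologue of 47 of the members, and 27 are specific to mitochondria.

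Few members were called as different between the groups. Of the 75, 5 were higher and 8 lower in AIMD mice (limma on log2(FPKM + 0.5), adjusted p under 0.05 over all genes tested), which is 17.3% of the members, whereas 36.1% of all genes tested were called, 19.4% as higher and 16.7% as lower. The members spread more within the groups, with a median SD of 0.404 against 0.319 for all genes tested. A larger spread lowers the share called at an equal change, and its part here was not tested. Among the Mrpl genes, 2 of 46 were higher and 6 were lower, and among the Mrps genes 3 of 29 were higher and 2 were lower. The median log2 fold change was -0.12 over all members, -0.13 over the Mrpl genes and -0.07 over the Mrps genes, against 0.01 over all genes tested. In 46 of the 75 the fold change was below 0. The members' median was -0.0038 without vehicle-treated mouse 1 and -0.21 without vehicle-treated mouse 8. Leaving out vehicle-treated mouse 8 gave 4 higher and 14 lower members, and 20.1% higher and 18.7% lower over all genes. Only 5 members were lower without AIMD mouse 1, 5 or 6, and 3 were higher without AIMD mouse 1 or 3 or without vehicle-treated mouse 6 or 7. Over all genes, 13.4% to 14.0% were lower in the former 3 fits and 16.5% to 18.4% were higher in the latter 4.

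**Figure D1:**
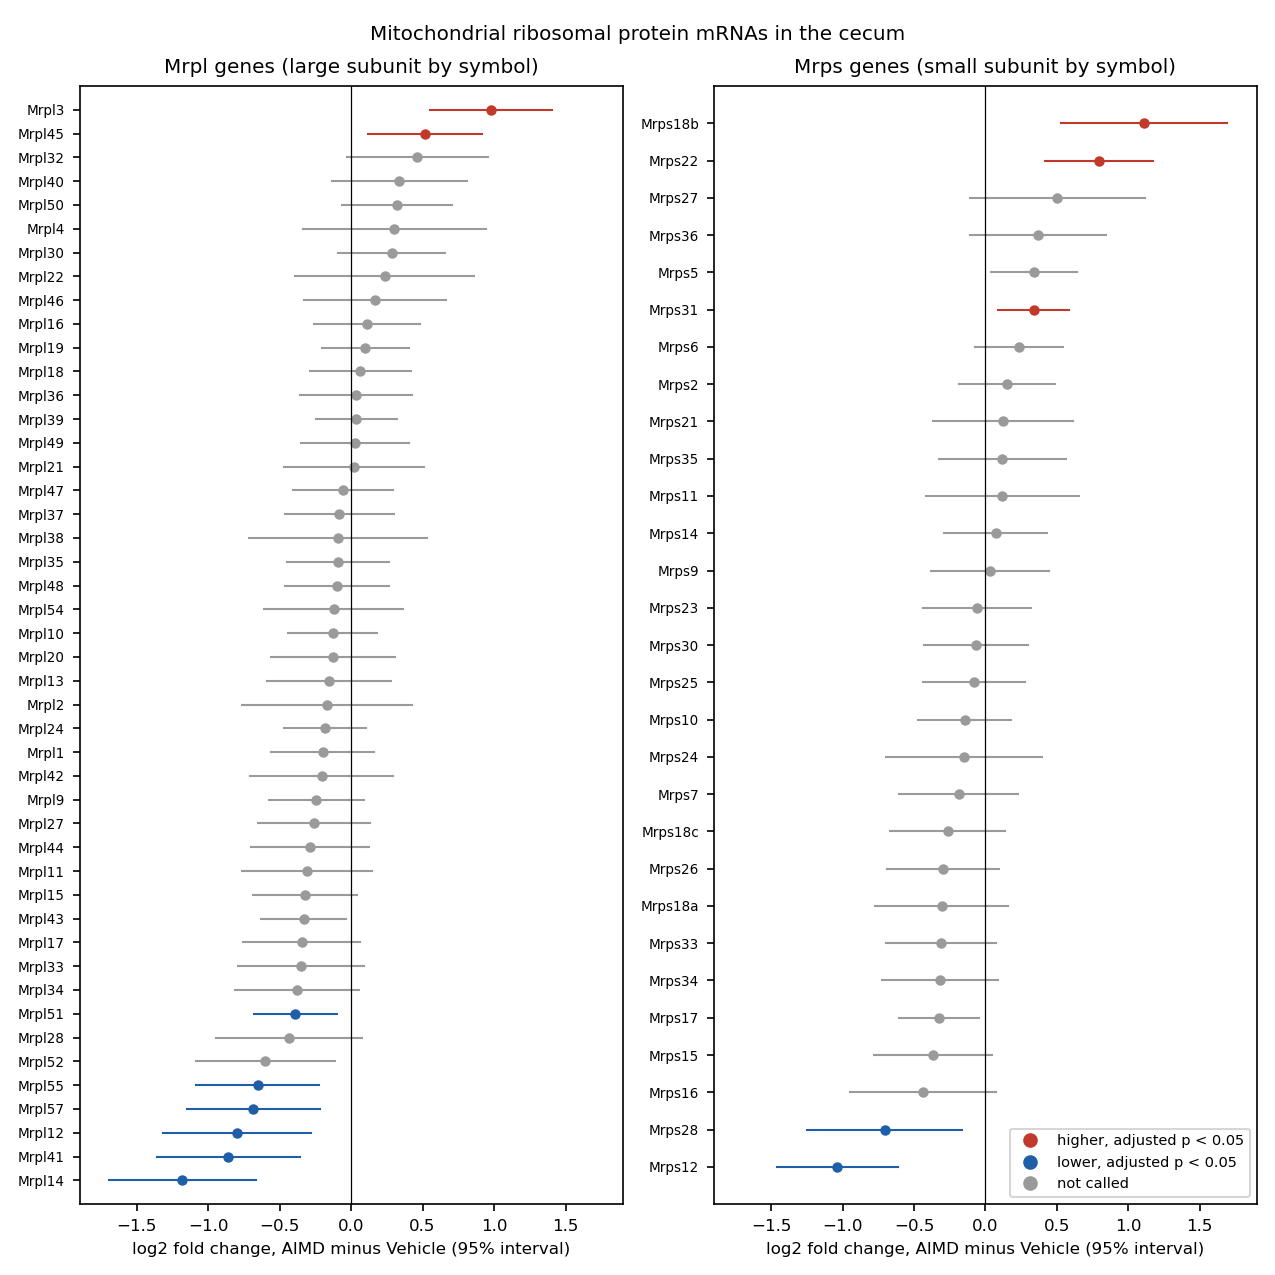
Log2 fold change of AIMD minus vehicle-treated mice (7 against 8) on the horizontal axis for each of the 46 Mrpl members (left) and the 29 Mrps members (right), with the 95% interval from limma as a line. Red marks the 5 members that were higher, blue the 8 that were lower and gray the 62 that did not pass the threshold.

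For most members the interval did not reach a log2 fold change of 1 in either direction. For 60 of the 62 members that did not pass the threshold, the 95% interval of the log2 fold change lay within -1 and 1, so that a change of the mean log2 level by 1 or more lay outside it. The bounds of the remaining members reached at most -1.09 and 1.12. Intervals within -1 and 1 still held sizeable changes, such as -0.95 to 0.08 for Mrps16 and -0.03 to 0.96 for Mrpl32. A member that was not called is thus not shown to be unchanged. At an unadjusted limma p under 0.05, 17 members differed. The share of all genes tested at that threshold was not counted, so 17 cannot be read as many or few. Mrpl52 had the adjusted p nearest to the threshold among those not called (log2 fold change -0.60, standard error 0.23, limma adjusted p = 0.05003).

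In the large subunit the 6 members that were lower in AIMD mice included Mrpl14 and the stalk protein Mrpl12. Mrpl14 (chromosome 17, 45686322 to 45698495 in GRCm38, plus strand) is a homologue of the bacterial large subunit protein of the same number. Its lowest, median and highest FPKM were 23.8, 37.9 and 64.7 in AIMD mice and 53.6, 89.3 and 166 in vehicle-treated mice. This gave a log2 fold change of -1.18, with a standard error of 0.24 (limma adjusted p = 0.00146). The lowest values were all from AIMD mice, 6 of which were below every vehicle-treated mouse, and the 2 ranges overlapped in a single AIMD mouse. Mrpl14 shared 6.24% of its 50-base windows with other genes, mainly Tmem63b on the opposite strand.

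Mrpl41 (chromosome 2, 24974117 to 24975098, minus strand), a protein found in mitochondrial ribosomes alone, had 32.7, 47.1 and 77.8 FPKM as lowest, median and highest value in AIMD mice and 45.55, 91.2 and 176 in vehicle-treated mice (log2 fold change -0.86, standard error 0.24, limma adjusted p = 0.00996). The ranges overlapped, since vehicle-treated mouse 8 was among the AIMD values, while 3 AIMD mice were below all vehicle-treated mice. Mrpl12 (chromosome 11, 120484613 to 120489065, plus strand) forms the stalk that binds translation factors and also binds the mitochondrial RNA polymerase. It had 85.0, 115 and 213 FPKM in AIMD mice and 114, 259 and 355 in vehicle-treated mice (log2 fold change -0.80, standard error 0.25, limma adjusted p = 0.0184). It was among the 3 most abundant Mrpl genes per length. The AIMD values were spread over the lower part of the vehicle range, with 3 of 7 below it.

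The other 3 large subunit members that were lower changed less. Mrpl57 (chromosome 14, 57826234 to 57829296, plus strand) had 11.5, 15.7 and 24.6 FPKM in AIMD mice and 12.8, 28.3 and 38.1 in vehicle-treated mice (log2 fold change -0.68, standard error 0.22, limma adjusted p = 0.0228). Mrpl55 (chromosome 11, 59202486 to 59206134, plus strand) had 15.3, 24.5 and 32.5 against 18.2, 38.4 and 60.7 FPKM (log2 fold change -0.65, standard error 0.20, limma adjusted p = 0.0192). Mrpl51 (chromosome 6, 125191801 to 125196269, plus strand) had 13.7, 16.7 and 22.2 against 15.4, 22.7 and 31.4 FPKM (log2 fold change -0.39, standard error 0.14, limma adjusted p = 0.0362). In each of these 3 genes the ranges of the groups overlapped, and vehicle-treated mouse 8 was the lowest mouse of its group.

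The small subunit members that were lower were Mrps12 and Mrps28. Mrps12 (chromosome 7, 28739641 to 28741820, minus strand) is the protein of the decoding center, where codon and transfer RNA are matched. Its lowest, median and highest FPKM were 22.1, 28.6 and 48.1 in AIMD mice and 40.4, 63.2 and 111 in vehicle-treated mice (log2 fold change -1.04, standard error 0.20, limma adjusted p = 0.00091). All but 2 AIMD mice were below every vehicle-treated mouse. Mrps28 (chromosome 3, 8802146 to 8923918, minus strand) had 25.6, 34.2 and 57.7 FPKM in AIMD mice and 25.1, 59.5 and 129 in vehicle-treated mice (log2 fold change -0.71, standard error 0.26, limma adjusted p = 0.0403). No AIMD mouse was below all vehicle-treated mice, because vehicle-treated mouse 8 had the lowest value of all.

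Higher in AIMD mice were 2 large subunit members. Mrpl3 (chromosome 9, 105053239 to 105079888, plus strand) belongs to the core around the peptidyl transferase center, where peptide bonds form. Its FPKM was low, with 3.36, 5.09 and 9.26 as lowest, median and highest value in AIMD mice and 1.15, 2.85 and 3.42 in vehicle-treated mice (log2 fold change 0.98, standard error 0.20, limma adjusted p = 0.00153). All AIMD mice except mouse 4 were above every vehicle-treated mouse. Mrpl45 (chromosome 11, 97315716 to 97329920, plus strand) anchors the ribosome at the inner membrane beside the exit of the nascent chain. It had 9.48, 14.2 and 17.7 FPKM in AIMD mice and 6.49, 9.51 and 16.2 in vehicle-treated mice (log2 fold change 0.52, standard error 0.19, limma adjusted p = 0.0417), with most AIMD values inside the vehicle range.

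Higher in the small subunit were Mrps22 and Mrps31, which are specific to mitochondria, and Mrps18b, a relative of the bacterial protein of this number. Mrps22 (chromosome 9, 98588730 to 98601660, minus strand) had 4.03, 5.07 and 9.15 FPKM as lowest, median and highest value in AIMD mice and 1.66, 3.16 and 4.02 in vehicle-treated mice (log2 fold change 0.80, standard error 0.18, limma adjusted p = 0.00267). It was the only one of the 75 members whose values did not overlap between the groups, which 8.56% of all genes tested did not. Mrps31 (chromosome 8, 22411361 to 22429665, plus strand) had 42.5, 48.0 and 59.0 against 27.1, 41.4 and 44.0 FPKM (log2 fold change 0.34, standard error 0.12, limma adjusted p = 0.0335), and all but 1 of the AIMD mice exceeded the vehicle range. Mrps18b (chromosome 17, 35910379 to 35916389, minus strand) had 2.30, 4.46 and 6.42 against 0.656, 1.51 and 3.93 FPKM (log2 fold change 1.11, standard error 0.28, limma adjusted p = 0.00522). The reads behind it were few, from 6 to 111 per vehicle-treated mouse, and 30.2% of its 50-base windows also occur in Gm16279 on the opposite strand, so its level is uncertain.

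**Figure D2:**
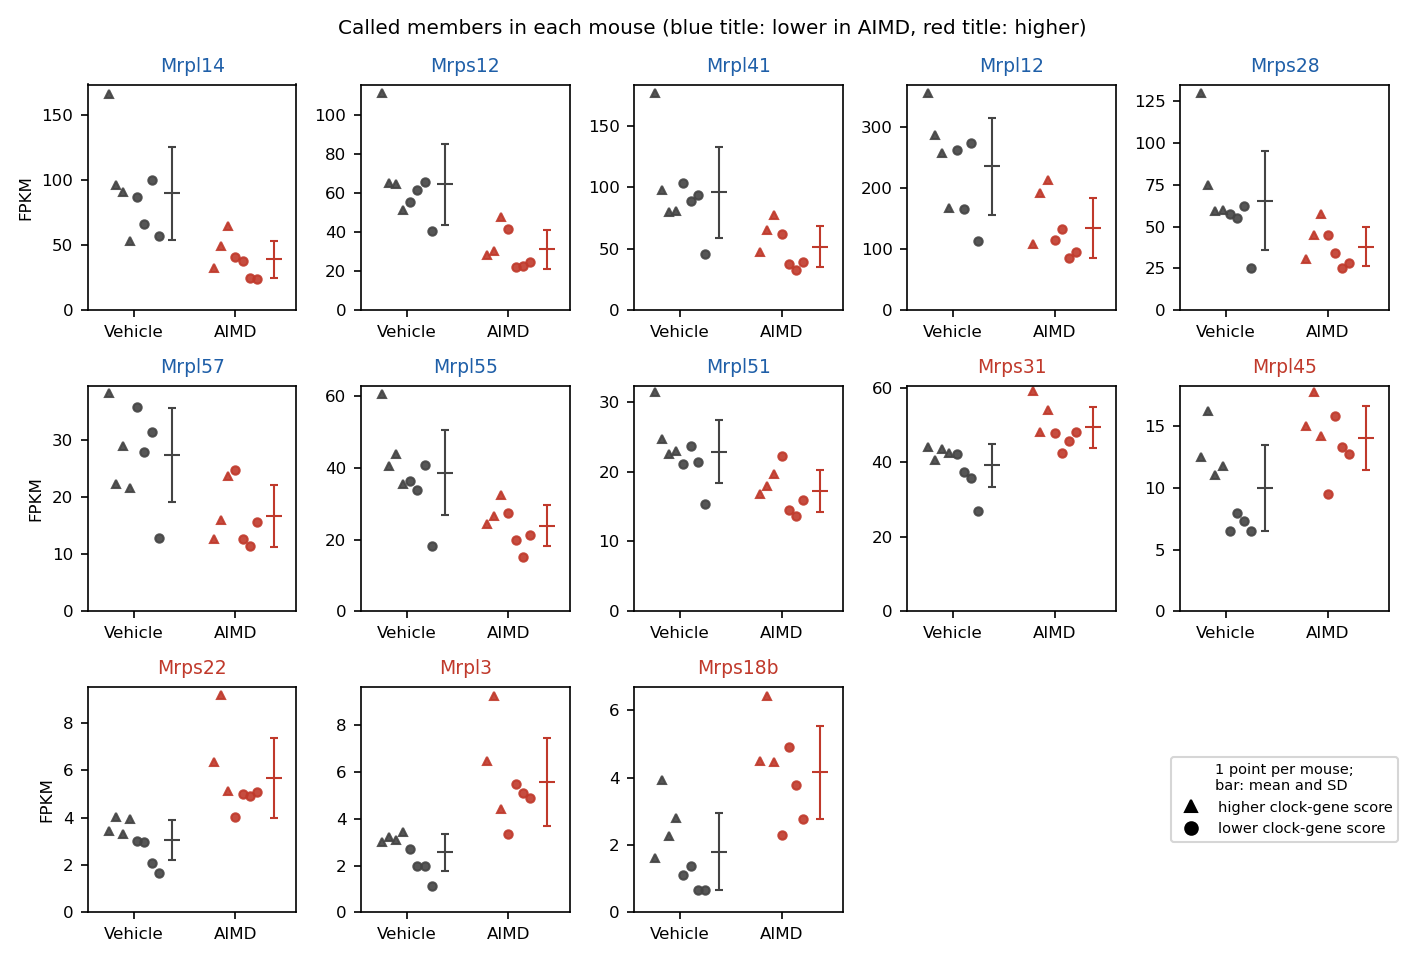
FPKM (vertical axes, each from 0) of the 13 called members, 1 point per mouse, 8 vehicle-treated mice in gray and 7 AIMD mice in red, with mean and SD as a bar. Triangles are the mice with the higher clock-gene score and circles those with the lower one. Mrps22 is the panel without overlap between the groups, and vehicle-treated mouse 1, the leftmost gray point, is the highest mouse in all 8 members with a blue title.

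The 13 calls differed in how far they rested on single mice. With each of the 15 mice left out in turn, 8 calls were kept, those of Mrpl3, Mrps18b and Mrps22 among the higher members and of Mrpl12, Mrpl14, Mrpl41, Mrpl55 and Mrps12 among the lower ones. Mrps28 passed only without AIMD mouse 2, 3 or 4 or vehicle-treated mouse 8, with a log2 fold change between -0.88 and -0.55. Mrpl45 passed only without AIMD mouse 4 or vehicle-treated mouse 1, 2, 3 or 4, between 0.44 and 0.62. Mrpl51 passed only without AIMD mouse 2, 3 or 4 or vehicle-treated mouse 5, 7 or 8, between -0.47 and -0.32. Mrpl57 was not called without AIMD mouse 1, 5 or 6, between -0.83 and -0.61, and Mrps31 was not called without AIMD mouse 1 or 3 or vehicle-treated mouse 6 or 7, between 0.26 and 0.37.

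Sorted by origin, 5 of 47 members with a bacterial homologue were lower and 2 were higher, with a median log2 fold change of -0.15. Of the 27 that are specific to mitochondria, 3 were lower and 3 were higher, with a median of -0.08. The difference between these classes was not tested. By level, none of the 16 members with a mean FPKM under 10 was lower and 3 were higher, while of the 14 with a mean FPKM over 60 none was higher and 3 were lower. The same split over all genes tested gave 18.9% higher and 15.5% lower under 10 FPKM, and 17.4% higher and 22.5% lower over 60.

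The members' levels, compared per length as FPKM, covered a wide range. Their mean FPKM over all mice ran from 0.702 for Mrps36 to 194 for Mrpl42, with a median of 24.0. Ranks by FPKM depend on the length assigned to each gene and need not follow the number of transcripts. In AIMD mice Mrpl42 had a median of 1332 reads and 172 FPKM. Mrpl15, with 8487 annotated exon bases, had 1449 reads and 15.8 FPKM. Mrpl42, Mrpl12 and Mrpl20 had the highest FPKM of the Mrpl genes. The FPKM of Mrpl42 was 176 ± 44.3 (SD, n = 7) after AIMD and 210.2 ± 71.1 (SD, n = 8) after vehicle. Mrpl20 had 92.4 ± 19.7 (SD, n = 7) and 105 ± 36.5 (SD, n = 8). Neither passed the threshold (limma adjusted p = 0.526 and 0.652). The lowest Mrpl genes were Mrpl3, Mrpl19 and Mrpl48, and of these Mrpl19 had 4.78 ± 1.02 (SD, n = 7) and 4.45 ± 0.999 (SD, n = 8) FPKM, and Mrpl48 5.92 ± 1.43 (SD, n = 7) and 6.44 ± 1.83 (SD, n = 8).

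Among the Mrps genes the highest FPKM were those of Mrps16, Mrps6 and Mrps18c. Mrps16 had 69.3 ± 24.6 FPKM (SD, n = 7) after AIMD and 94.7 ± 32.1 (SD, n = 8) after vehicle, Mrps6 had 85.6 ± 16.7 (SD, n = 7) and 72.6 ± 13.5 (SD, n = 8), and Mrps18c had 62.6 ± 14.2 (SD, n = 7) and 76.4 ± 21.2 (SD, n = 8). None of them passed the threshold, with log2 fold changes of -0.44, 0.24 and -0.26 (limma adjusted p = 0.172, 0.222 and 0.297). For Mrps6 and Mrps18c, 17.3% and 22.9% of the 50-base windows are shared with other genes. The lowest were Mrps36, Mrps11 and Mrps5. Mrps5 lines the channel through which messenger RNA enters, and it had 2.30 ± 0.564 (SD, n = 7) and 1.69 ± 0.344 (SD, n = 8) FPKM (limma adjusted p = 0.0725).

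The members nearest to the filter were Mrps36, which reached 0.5 FPKM in 11 mice, and Mrps11, with 0.885 to 2.61 FPKM in AIMD mice and 0.981 to 3.45 in vehicle-treated mice. Mrps36 had 0.845 ± 0.325 FPKM (SD, n = 7) and 0.577 ± 0.376 (SD, n = 8), on 0 to 26 reads per mouse. Just outside lay the pseudogenes Mrpl48-ps, at the filter in 4 mice, and Mrpl23-ps1, at the filter in 3. Mrpl23 itself had at most 0.303 FPKM, on 0 to 5 reads per mouse. It shares 11.8% of its own windows, mainly with Mrpl23-ps1, which shares 92.5% of its windows, mainly with Mrpl23. The cause of the low value of Mrpl23 was not tested, so its level is uncertain. Mrpl53 was listed at 0 in every mouse, and 82.0% of its windows are shared with Gm42688 on the same strand, so its 0 is uncertain. The last 2 were named after their values were seen. Of the 2 proteins with misleading names, Mrps18a had 12.4 ± 3.17 (SD, n = 7) and 16.2 ± 6.78 FPKM (SD, n = 8), and Mrps30 had 45.5 ± 7.09 (SD, n = 7) and 48.7 ± 11.9 (SD, n = 8) (limma adjusted p = 0.294 and 0.788). In all, 19 of the members shared over 10% of their windows with other genes, and 24 shared none.

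From mouse to mouse the members rose and fell together. After the group means were removed, the median correlation between pairs of members over the 15 mice was 0.743, and 74 of the 75 had a correlation over 0.5 with the mean of the others, with Mrps5 as the exception at 0.300. All members share the libraries, so these correlations describe the mice and not the treatment. They were not computed for other genes, so they are not shown to be particular to the members. The mean of all members, as a deviation from the group mean of log2(FPKM + 0.5), ran from -0.80 in vehicle-treated mouse 8 to 0.58 in vehicle-treated mouse 1, and from -0.29 to 0.38 among AIMD mice. Median SD within the groups was 0.404 for the members and 0.319 for all genes tested. The summed FPKM of the 75 members ranged from 1826 to 3090.4 in AIMD mice (mean 2365 ± 501, SD, n = 7) and from 1519 to 4292 in vehicle-treated mice (mean 2846 ± 779, SD, n = 8), and the ranges overlapped over most of their length.

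The sum of the 46 Mrpl genes exceeded that of the 29 Mrps genes in every mouse. The factor was smaller in AIMD mice 1, 3, 4, 6 and 7 than in any vehicle-treated mouse. The ratio of summed FPKM lay between 2.24 and 2.41 in AIMD mice (mean 2.32 ± 0.0624, SD, n = 7) and between 2.35 and 2.78 in vehicle-treated mice (mean 2.48 ± 0.142, SD, n = 8). Single genes weigh heavily in it. The mean of Mrpl12 was 135 FPKM after AIMD and 235 after vehicle, where the Mrpl sums had means of 1653 and 2028. The ratio was not computed without Mrpl12. Of the FPKM summed over all genes outside chromosome M, the members held 0.644% ± 0.0988 (SD, n = 7) and 0.730% ± 0.147 (SD, n = 8). With chromosome M included the order of the means turned, to 0.572% ± 0.0930 (SD, n = 7) and 0.540% ± 0.142 (SD, n = 8). None of the differences in this ratio and these shares was tested, and the ranges overlapped in each.

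The members' common level went with a score of circadian clock genes, which splits the mice into 7 with a score of at least 1.81 (AIMD mice 1 to 3 and vehicle-treated mice 1 to 4) and 8 with a score of at most -0.16. The score is the mean log2 level of Arntl, Npas2 and Nfil3 minus that of 8 genes of the opposite phase. In the mice with the higher score, the mean log2 level of the members was 4.61 ± 0.195 (SD, n = 3) after AIMD and 4.71 ± 0.247 (SD, n = 4) after vehicle. In those with the lower score it was 4.17 ± 0.120 (SD, n = 4) and 4.19 ± 0.366 (SD, n = 4). All 3 AIMD mice of the first kind were above all 4 of the second kind. Vehicle-treated mice of the 2 kinds overlapped, since the lowest of the first had 4.45 and the highest of the second 4.46. Whether the score stands for the time of sacrifice was not tested. With the score as a covariate, 8 members were higher and 12 lower in AIMD mice, and the 13 calls were among these 20. The same model called 22.9% of all genes as higher and 20.2% as lower. Within the mice of the higher score 3 members were higher and 3 lower, and within those of the lower score 4 were higher and 3 lower, in fits of 3 against 4 and 4 against 4 mice chosen after the data were seen. Over all genes, 8.63% were higher and 7.08% lower in the former fit, and 11.2% and 9.49% in the latter. Mrpl3, Mrps18b and Mrps22 were higher and Mrps12 was lower in both.

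**Figure D3:**
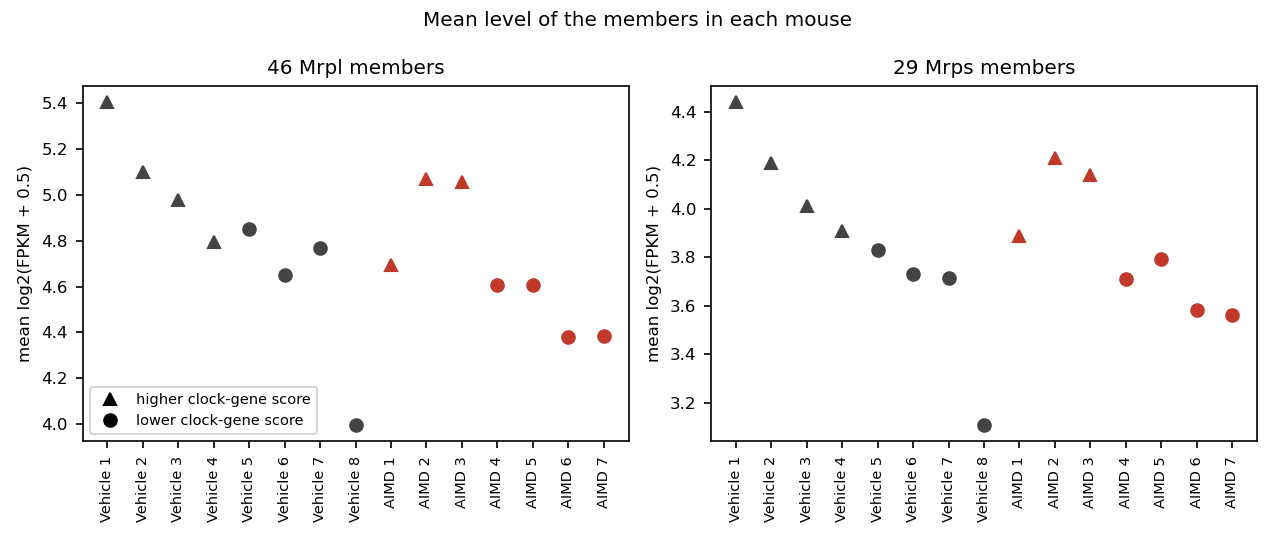
Mean of log2(FPKM + 0.5) over the 46 Mrpl members (left) and over the 29 Mrps members (right) in each mouse, 8 vehicle-treated mice in gray and 7 AIMD mice in red, with triangles for the higher and circles for the lower clock-gene score. The Mrpl mean lay between 4.38 and 5.07 in AIMD mice and between 3.99 and 5.41 in vehicle-treated mice, and vehicle-treated mouse 8 was the lowest in both panels.

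The members were also compared with one another within each mouse. With the mean log2 level of the other members subtracted in each mouse, the values of 6 of the 75 members did not overlap between groups. Over all genes tested the share was 3.49% with the mean of the members subtracted, and 8.56% without subtraction. The members' count cannot be set against 3.49% as like with like. The subtraction takes out spread that the members share from mouse to mouse, and adds it to genes that lack it. Mrpl3, Mrps22 and Mrpl30 were above and Mrpl41, Mrpl55 and Mrps12 below in all 7 AIMD mice, and all of these but Mrpl30 were called members. The relative levels of the other 8 called members overlapped between the groups. Mrpl3 lay between -2.43 and -1.47 in AIMD mice and between -3.26 and -2.51 in vehicle-treated mice on this log2 scale, and Mrps12 between 0.21 and 1.15 against 1.27 and 1.80. Mrpl30, named after its values were seen, lay between 0.28 and 0.58 against -0.20 and 0.14.

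Markers of the cell types of the cecal wall were compared as well. Of 10 epithelial markers, 2 were higher and 1 was lower in AIMD mice, and their summed FPKM ran from 6212 to 9766 in AIMD mice and from 5619 to 7831 in vehicle-treated mice. All 8 smooth muscle markers had a fold change below 0, of which 1 passed the test, with summed FPKM of 227 to 836 and 537 to 3145. All 5 tested markers of enteric neurons and glia, of 8 listed, were lower, with 2.62 to 5.11 and 4.83 to 82.1 summed FPKM. Of 8 tested immune markers 3 were higher and 1 lower (71.8 to 276 and 65.7 to 137 summed FPKM), of 6 fibroblast markers 1 was higher and 1 lower (35.7 to 84.9 and 27.7 to 120), and of 4 tested endothelial markers none passed (4.55 to 7.09 and 5.00 to 8.92), all 4 with a fold change below 0. No marker was at 0 in all mice, and Sox10 was at 0 in 4 AIMD mice and 1 vehicle-treated mouse. Vehicle-treated mouse 8 had the highest sums of muscle and of nerve markers, the fewest reads and the lowest level of the members. The part of these marker levels in the results was not tested.

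The genes that surround the mitochondrial ribosome were taken from lists. Among 6 ribosomal proteins with another kind of symbol, Ptcd3, a pentatricopeptide repeat protein of the small subunit, was higher, with 4.51, 8.80 and 13.3 FPKM as lowest, median and highest value in AIMD mice and 1.48, 2.42 and 4.94 in those given vehicle (log2 fold change 1.45, standard error 0.25, limma adjusted p = 0.000397). Aurkaip1, also of the small subunit, was lower (50.2 ± 12.4 FPKM, SD, n = 7, against 74.1 ± 21.9, SD, n = 8). The other 4, Dap3, Chchd1, Gadd45gip1 and Ict1, did not pass. Of 11 translation factors, the initiation factors Mtif2 (log2 fold change 0.54) and Mtif3 (0.45) were higher and the others did not pass. Of 21 tested assembly and rRNA-modifying factors, Rnmtl1 was higher (0.70) and 4 were lower, led by Ftsj2 (-0.68) and Ngrn (-0.53). Of 20 aminoacyl-tRNA synthetases and related enzymes, 4 were higher and 1 lower, and the largest differences among these 5 were those of Nars2 (0.75), Wars2 (0.58) and Ears2 (-0.52).

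Among 12 genes for transcription and replication of mitochondrial DNA, none was higher and 3 were lower. The topoisomerase Top1mt had 1.63 ± 0.350 FPKM (SD, n = 7) after AIMD and 4.39 ± 1.01 (SD, n = 8) after vehicle (log2 fold change -1.19, limma adjusted p = 2.03e-05), and the groups did not overlap. Mterf1a (-0.80) and Mterf1b (-0.77), near-identical copies between which reads could be split, were the others. The transcription factor Tfam had a log2 fold change of 0.30 and did not pass.

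RNAs of the mitochondrial chromosome had fold changes further below 0 than any member, although their levels were far above those of the members in both groups. All 7 tested mRNAs of the 13 were lower, with log2 fold changes from -1.80 for mt-Nd5 to -1.22 for mt-Nd2 and a median of -1.49. The other 6 could not be tested, since mt-Nd3, mt-Nd4l, mt-Atp6 and mt-Atp8 were listed at 0 in every mouse and mt-Co2 and mt-Co3 at no more than 0.247 FPKM. Every cell with mitochondria uses these RNAs, so their listed values are uncertain and do not stand for low levels. The ribosomal RNA of the small subunit, mt-Rnr1, had 5028 ± 2230 FPKM (SD, n = 7) after AIMD and 22555 ± 11634 (SD, n = 8) after vehicle (log2 fold change -2.10, standard error 0.34, limma adjusted p = 0.000211), and that of the large subunit, mt-Rnr2, fell by 1.92 on the log2 scale. Libraries were selected for poly-A tails, so the values of rRNAs depend on how much of each carried a tail. Among 73 tested proteins of the cytosolic ribosome, of 81 listed, 9 were higher and 15 lower, with a median log2 fold change of -0.24. The median of their mean FPKM was 28.9. Windows shared with other genes were not computed for them, so reads lost that way were not tested. Of 12 proliferation genes, Mki67 and Pcna were higher and Mcm2 was lower.

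**Figure D4:**
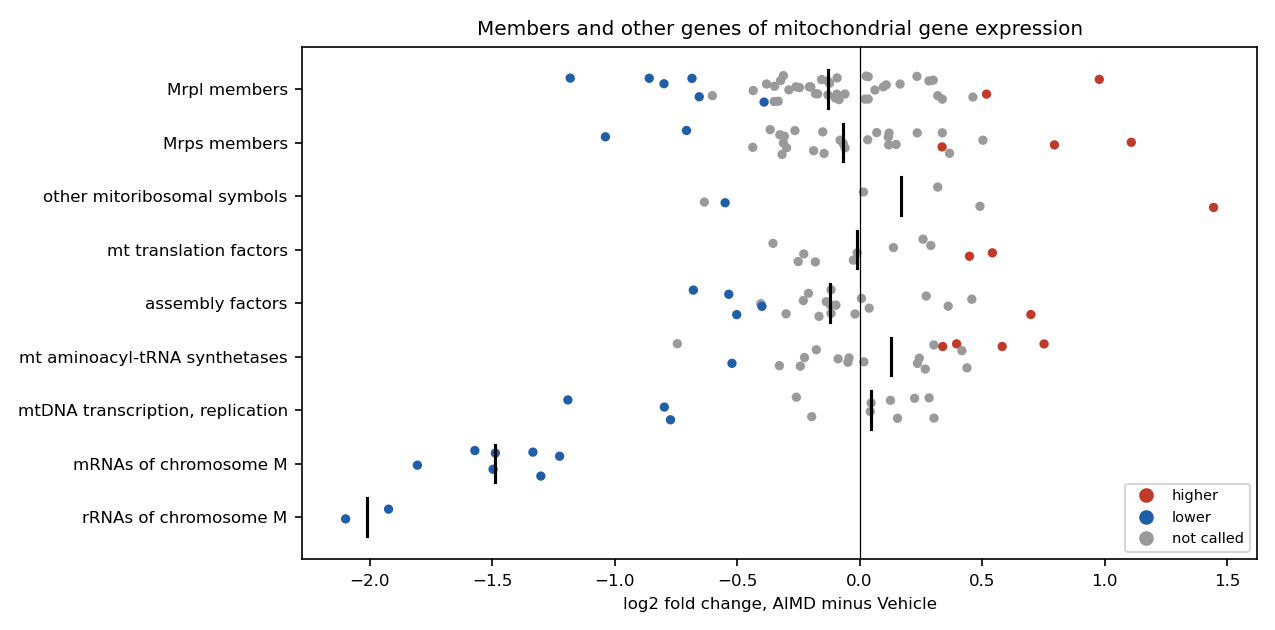
Log2 fold change of AIMD minus vehicle-treated mice (horizontal axis) for the 46 Mrpl and 29 Mrps members and for the tested genes of 7 lists of mitochondrial gene expression, 1 point per gene, with the median of each list as a black line. Red points were higher, blue points lower and gray points did not pass, and the mRNAs and rRNAs of chromosome M lie between -2.10 and -1.22, left of every other point.

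The promoters of the members were searched for motifs of factors known for nuclear genes of mitochondrial proteins, since the members moved together from mouse to mouse. RefSeq promoters on GRCm38.p6, 300 bases from 250 before to 50 after the start, were matched by symbol for 66 of the 75 members. The last 100 bases before the start are shown for the member with the largest rise and the largest fall of each subunit, 5′ to 3′ on the strand of the gene, with matches in capitals. They lie at chr9:105053168-105053267 (plus strand) for Mrpl3, chr17:45686249-45686348 (plus strand) for Mrpl14, chr17:35916441-35916540 (minus strand) for Mrps18b and chr7:28741822-28741921 (minus strand) for Mrps12.
Mrpl3: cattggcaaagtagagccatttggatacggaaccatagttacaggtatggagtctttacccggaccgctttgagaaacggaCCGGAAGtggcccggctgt
Mrpl14: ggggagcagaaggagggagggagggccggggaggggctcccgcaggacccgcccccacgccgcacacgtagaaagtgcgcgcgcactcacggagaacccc
Mrps18b: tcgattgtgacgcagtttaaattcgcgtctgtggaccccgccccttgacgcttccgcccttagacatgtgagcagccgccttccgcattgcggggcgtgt
Mrps12: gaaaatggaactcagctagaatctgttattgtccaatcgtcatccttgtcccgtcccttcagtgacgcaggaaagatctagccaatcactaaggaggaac

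The motifs were the cores of NRF1 (GCATGCGC), of ETS factors such as GABPA (CCGGAAG) and of YY1 (AAGATGGC), the E-box bound by clock factors (CACGTG) and the estrogen-related receptor element (TCAAGGTCA), on both strands. No motif contains another. The ETS core was in the promoters of 24 of 66 members (36.4%), against 20.4% of the 8809 tested genes with a promoter and 9.93% of all 27025. The YY1 core was in 12 (18.2%, against 5.53% and 3.19%) and the NRF1 core in 8 (12.1%, against 6.06% and 3.05%). The E-box was in 5 (7.58%, against 11.8% and 8.09%), and the receptor element was in none (against 0.307% and 0.466%). The ETS core was in the promoters of 3 of 5 members that were higher, of 3 of 7 that were lower and of 18 of 54 that did not pass. In Mrpl3 it lies within the bases shown. Outside the bases shown, the NRF1 and ETS cores match in the promoter of Mrps18b and the ETS and YY1 cores in that of Mrps12, and no motif matches in that of Mrpl14. A match is a description of these letters and not evidence of binding.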

How the data were processed

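The authors prepared stranded poly-A libraries (50-base single reads), mapped them to GRCm38 with STAR and counted genes with featureCounts (versions not given in the sources used here), and deposited FPKM per gene and mouse without pooling. How counts became FPKM is not described. For their own tests of counts the authors used DESeq2 and a model that included time of sacrifice, absent from the labels. The table has 45808 rows, 4 left out for a repeated symbol. Whole reads (tolerance 0.02) were recovered for 99.996% of genes above 0 and gave the depth. The 95% intervals of fold changes are from limma and rest on the spread between mice.

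The deposited FPKM were scaled by size factors (median of ratios) and analysed as log2(FPKM + 0.5), so fold changes understate the change of low genes. limma 3.58.1 (R 4.3.3; lmFit, eBayes with trend, two-sided) was fitted over the 11983 genes that reached 0.5 FPKM in 7 or more mice, and p-values were adjusted by Benjamini-Hochberg (threshold 0.05). Tested on simulated data of this comparison, 82.5% of 200 genes changed by 1 on the log2 scale were recovered, and 8 of 173 calls were false. Shared 50-base windows, positions and overlaps are from GENCODE M21. Other steps used Python 3.11.15 with pandas 2.3.3, numpy 2.4.6 and matplotlib 3.10.9. Members, lists and tests were chosen with earlier results of these data known. Named members are the 6 with the largest rise and fall called per subunit, those without overlap, the 3 highest and lowest per subunit, those at the filter and 4 chosen by role, and of each list the 3 largest differences called. Alternatives were other pseudocounts, filters, scalings, tests and covariates, a replicate block and each mouse left out. Replicate numbers name different mice. The paper gives shared housing, with 3 to 4 mice in a cage, and the labels do not name the cages. The fits treated each mouse as independent, and an effect of the cage was not tested.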

Additional observations from a re-analysis of the deposited data

Results flagged for a closer look

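Among 56 groups of values tested for a mouse far from the others, 3 held one, and chance alone marks about 1 in 20 groups. In each case vehicle-treated mouse 1 was the highest of its group. It had 166.2 FPKM of Mrpl14, with 99.92 in the next mouse, 176.2 FPKM of Mrpl41, with 103.4 in the next, and 111.2 FPKM of Mrps12, with 65.63 in the next. The calls of all 3 members were kept without this mouse. It also had the highest mean level of the members, and its part in these values was not tested further.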

How the results depend on the processing

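Apart from a threshold of 0.01, the call of Mrpl12 was lost only with the exact rank-sum test and within the mice of either clock-gene score. Also apart from that threshold, the calls of 7 of the 13 members (Mrpl3, Mrpl14, Mrpl41, Mrpl55, Mrps12, Mrps18b and Mrps22) were kept under every other pseudocount, filter, scaling, test, covariate and block in which they were tested, and with each mouse left out. Of these, Mrpl14 and Mrpl41 were not called within the mice of the higher score, nor Mrpl55 within those of the lower score. The calls of 4 were kept within both. No called member or gene of a list changed direction in any alternative in which it or the main test passed. The cause of the changes below was not tested. At a threshold of 0.01, 3 members were higher and 3 lower, 3 of the large and 3 of the small subunit. The share of all genes at this threshold was not counted. When the clock-gene score entered the model, 8 were higher, 8 of the small subunit passed, and with the score centred within groups 8 of the small subunit passed and 13 were lower. Within the mice of the higher score alone (chosen after the data were seen), 3 members were higher and 3 lower, 3 of each subunit, and within those of the lower score 4 of the large and 3 of the small subunit passed, 3 of them lower. With each mouse left out in turn, 5 to 11 members of the large and 3 to 7 of the small subunit passed, 3 to 6 were higher and 5 to 14 lower, and the median log2 fold change ran from -0.21 to -0.0038. Scaling by the FPKM outside chromosome M moved it to -0.05 and the median over all genes tested from 0.01 to 0.07.

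Same-numbered mice had correlations of their deviations between -0.24 and 0.22, which shows no close pairing but cannot exclude a shared order of the numbers. In both groups mice 1 to 3 had the higher clock-gene score and mice 5 to 7 the lower one. Number 4 was lower among AIMD mice and higher among vehicle-treated mice. With the number as a replicate block, in which vehicle-treated mouse 8 has no partner and drops out, 16 members of the large and 9 of the small subunit passed, 3 higher and 22 lower, where without that mouse and without the block 14 were lower. Over all genes the block gave 19.9% higher and 18.9% lower. Mrpl45 and Mrps31 were not called with the block. Depth limits the low members most: Mrps36 rested on 0 to 26 reads per mouse.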
